A study of Mus musculus with 6 samples.

Results

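The 33 genes described here belong to microglia, the resident macrophages of the brain, and to the complement pathway, together with 5 partner signals. The partner signals are Cx3cl1, Csf1, Il34 and Cd47, which other brain cells send to microglia or use to hold them off, and the Cd47 receptor Sirpa. All 33 genes were taken by symbol from a gene count table of 52636 genes, and each symbol matched 1 row. Of the 33, 32 had enough reads to be tested and C3 did not. The table was made from V1, the primary visual area of the cortex. The animals were C57BL/6J wild-type mice, taken on postnatal day 28 after the right eye had been kept closed by lid suture for 3 days (monocular deprivation). V1 contralateral to the sutured eye, which takes most of its input from that eye, was compared with ipsilateral V1 of the same animals. There were 3 contralateral and 3 ipsilateral total RNA libraries from 3 mice. All 6 libraries came from deprived animals, so no unmanipulated cortex enters any comparison, and the ipsilateral side is an internal reference rather than an untreated control.

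Microglia monitor synapses through fine processes and prune some of them during postnatal development, including in the visual system. Neurons and microglia exchange signals through pairs such as the ligand Cx3cl1 and its receptor Cx3cr1, while nucleotides released by active cells are sensed by receptors such as P2ry12. In the classical complement pathway, C1q tags a synapse and starts a cascade that deposits C3 fragments, which microglia recognise through complement receptor 3, and Cd47 acts as a signal against engulfment.

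Between 17849253 and 32213500 reads were assigned to genes per library, and the tested members had 37 to 18322 reads in a library. Values are counts per 1000000 reads (CPM), scaled by the trimmed mean of M-values, and a log2 fold change is contralateral over ipsilateral unless stated otherwise. An adjusted p (edgeR quasi-likelihood test, Benjamini-Hochberg over the 20473 genes tested) under 0.05 was taken as a difference. The libraries fell into 2 sets by the mitochondrial ribosomal RNA mt-Rnr1, at 14.5 to 35.9 CPM in contralateral 1, ipsilateral 1 and ipsilateral 3 and at 2243 to 5801 CPM in the other 3. Both libraries of mouse 1 were thus in the low set and both of mouse 2 in the high set, while mouse 3 was high contralaterally and low ipsilaterally. Neuron markers had a median 0.41 log2 units below their mean over the libraries in contralateral 2, against -0.09 to 0.16 in the other 5 libraries. These libraries are bulk tissue, in which fewer microglia and less RNA per microglial cell cannot be told apart.

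The defining microglial markers were present in every library. Per length, in CPM per kilobase of gene (RPKM, mean ± SD over 6 libraries), the members other than the partner signals ranged widely. The lysosomal protease Ctss was highest at 29.3 ± 2.41 RPKM, followed by the Mertk ligand Gas6 at 23.6 ± 2.92, the purinergic receptor P2ry12 at 20.8 ± 2.67 and the growth factor receptor Csf1r at 19.4 ± 3.26. P2ry12 and Csf1r were not separated by more than the spread over libraries. Of the C1q chains, C1qb stood at 15.9 ± 3.06 RPKM, C1qa at 14.98 ± 4.21 and C1qc at 7.76 ± 2.44, and C1qa and C1qb differed by less than their spread. Fractalkine receptor Cx3cr1 stood at 14.4 ± 2.09 RPKM, the microglial Fc receptor-like gene Fcrls at 12.2 ± 1.63 and the surface protein Tmem119 at 5.82 ± 1.26.

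The downstream end of the complement route lay far lower on this scale. Both subunits of complement receptor 3 were near 1 RPKM, with Itgam at 1.11 ± 0.164 and Itgb2 at 1.10 ± 0.0961. C4b stood at 1.10 ± 0.180 RPKM, and its reads may be shared with the near-identical copy C4a. C3 had 7, 3 and 2 reads in contralateral 1 to 3 and 2, 5 and 0 reads in ipsilateral 1 to 3. The 0 in ipsilateral 3 allows up to 3 reads, or 0.127 CPM before scaling, a limit that covers counting error only. A change of C3 between the hemispheres was therefore not detectable at this depth, and C3 is left out of the counts below.

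**Figure D1:**
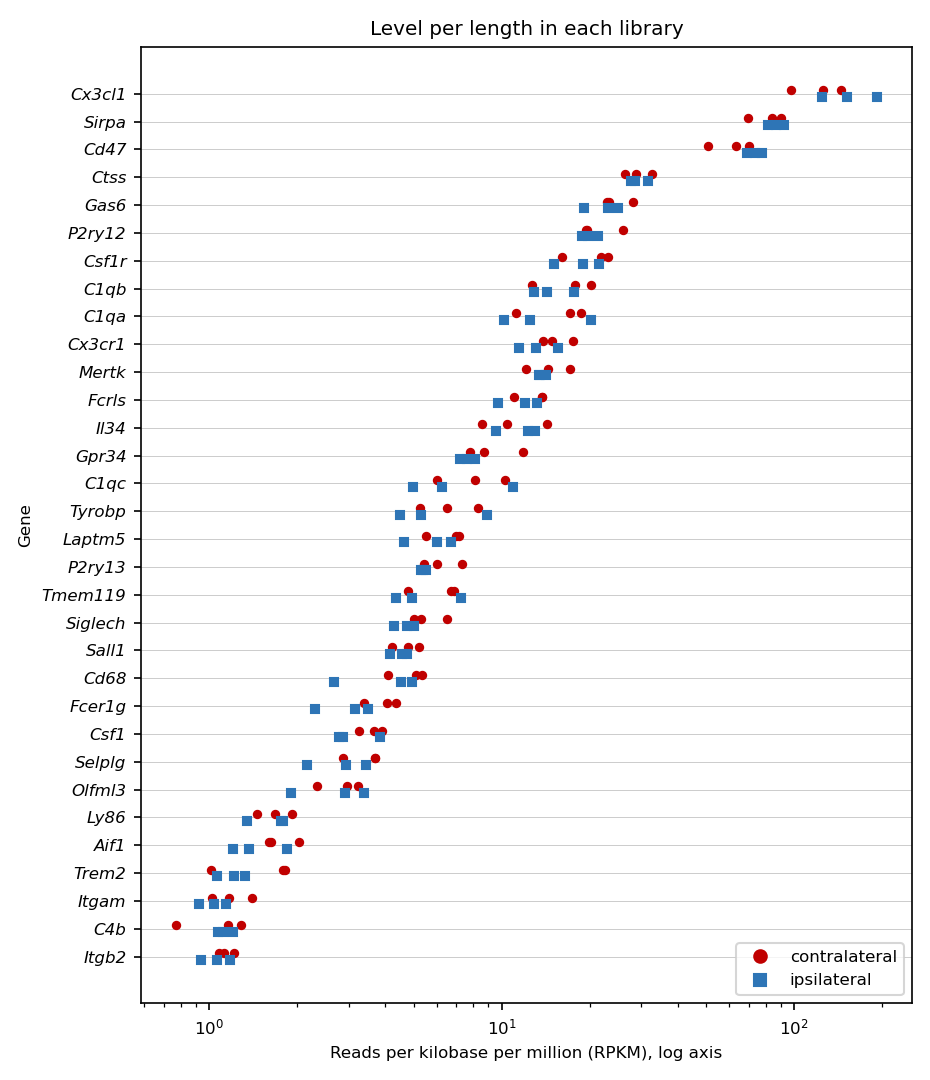
Length-scaled level (RPKM, log axis) of the 32 tested members, sorted by mean, with the 3 contralateral libraries as red circles and the 3 ipsilateral libraries as blue squares. The neuronal ligand Cx3cl1 stood highest at a mean of 139 RPKM, and Itgam, Itgb2 and C4b lay lowest, near 1.1 RPKM.

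Partner signals, made largely by cells other than microglia, included the 3 members of highest level. Cx3cl1, a membrane-bound chemokine of neurons, averaged 139 ± 31.9 RPKM, and Sirpa, the receptor that reads Cd47, averaged 83.9 ± 8.04. Cd47 itself averaged 67.4 ± 9.38 RPKM. The 2 ligands of Csf1r were lower, with Il34 at 11.4 ± 2.21 RPKM and Csf1 at 3.39 ± 0.491.

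The first question was whether these genes differed between the deprived and the reference hemisphere. None of the 32 tested members did, with or without mouse as a block, against a background of 0.127% of all tested genes without the block and 0.894% with it. Adjusted p ranged from 0.824 to 0.998 without the block, and from 0.256 to 0.998 with it. At an unadjusted p under 0.05 there were 0 members without the block (6.15% of all genes) and 4 with it (13.2% of all genes), namely Cx3cl1, Cd47, Gpr34 and Selplg. DESeq2 and limma-voom also called 0 members. Standard errors of the members' log2 fold changes ran from 0.09 (Csf1r) to 0.25 (Aif1) with mouse as a block. Without the block they ran from 0.13 to 0.29, and changes of several times that size could also be missed. In the same fit the neuron marker Gad1, at -0.56 (SE 0.13), did not pass (adjusted p = 0.278).

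The signs were uneven. Log2 fold changes were above 0 in 27 of 32 members, against 55.4% of all tested genes, with a median of 0.14 against 0.03 over all genes. Leaving aside the 5 partner signals, 26 of 27 were above 0 (20 to 27 with a library or mouse left out). Many of these 27 share a cell type, so the members are not independent of each other. Mertk and Gas6 among them are also expressed by astrocytes. By mouse, the contralateral library was higher for 15 of 32 members in mouse 1 (49.7% of all genes), 26 in mouse 2 (53.1%) and 26 in mouse 3 (52.6%), with median log2 ratios of -0.02, 0.27 and 0.15. In all 3 mice, 9 of 32 members were higher contralaterally (19.2% of all genes) and 1, Cd47, was lower (17.3% of all genes). No member had groups that did not overlap, which 13% of all genes had.

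The lean differed between libraries. Contralateral 2 held the highest value of 21 of the 32 members (27% of all genes), and ipsilateral 3 held the lowest of 20 (20.4%). Without ipsilateral 3 the median log2 fold change was 0.02, with 21 members above 0. Without contralateral 2 it was 0.08, and without contralateral 3 it was 0.25. Within the low mt-Rnr1 libraries (1 contralateral, 2 ipsilateral) the median was 0.21, and within the high ones (2 contralateral, 1 ipsilateral) it was 0.07.

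Marker genes of other cell types also varied between libraries, in part with the members. The 27 tested members other than the partner signals were compared with their mean over libraries. Their median log2 deviation was 0.09, 0.26 and -0.11 in contralateral 1 to 3 and 0.09, -0.02 and -0.29 in ipsilateral 1 to 3. A set of 8 microglia markers that are not members, all tested, gave 0.12, 0.25 and -0.12, and then 0.10, -0.05 and -0.29. Their summed level was 110.9 to 139.1 CPM contralaterally and 99.0 to 121.0 CPM ipsilaterally, and none was at 0. Astrocyte markers gave 0.21 in contralateral 2 and -0.20 in ipsilateral 3, while neuron markers gave -0.41 and 0.16. Of the 10 neuron markers, 8 had log2 fold changes below 0, with a median of -0.29, and the 2 that passed with mouse as a block were Gad1 and Gad2, the enzymes that make GABA. Oligodendrocyte markers had log2 fold changes below 0 in 10 of 10, with a median of -0.23, and deviated by 0.14 in contralateral 2, -0.51 in contralateral 3 and 0.09 in ipsilateral 3. Meningeal and fibroblast markers were below 0 in 7 of 8 (median -0.25), and 8 of 10 endothelial and mural markers were above 0 (median 0.08). Mitochondrial transcripts, taken as a sign of RNA quality, were above 0 in 11 of 11, with a median of 0.47. The part of tissue composition or RNA quality in the members' signs was not tested.

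**Figure D2:**
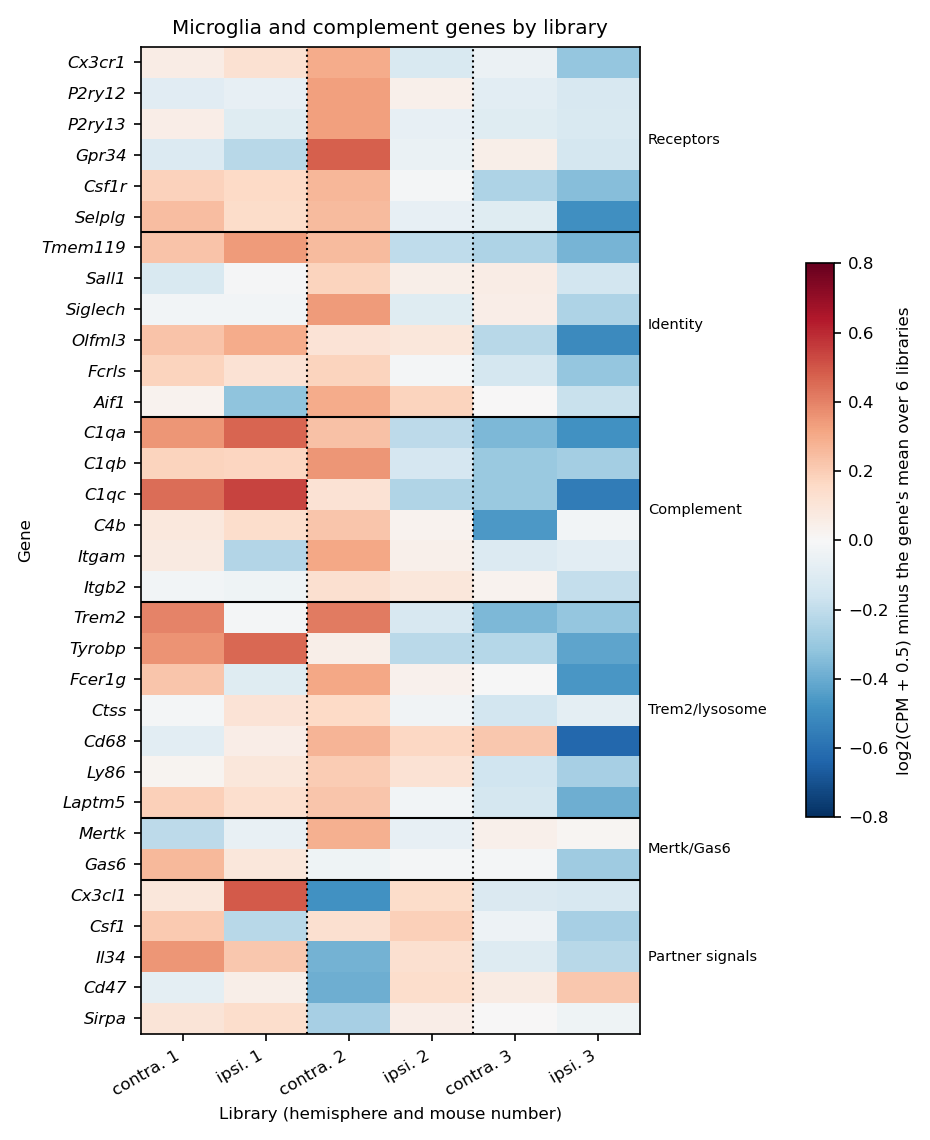
Deviation of log2(CPM + 0.5) of each tested member from its own mean over the 6 libraries (colour scale), with members as rows grouped by role and libraries as columns paired by mouse. Most microglial rows are highest in contralateral 2 and lowest in ipsilateral 3, and the partner signals Cx3cl1, Il34, Cd47 and Sirpa are lowest in contralateral 2.

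The 6 genes of the receptor group were receptors for neuronal and growth factor signals and the P-selectin ligand Selplg. All had log2 fold changes above 0, with a median of 0.21, and none passed the test. By mouse, 4 of the 6 were higher contralaterally in mouse 1, and 6 of 6 in mouse 2 and in mouse 3. Gpr34, a receptor for lysophosphatidylserine that is highly enriched in microglia, stood at 16.3, 24.7 and 18.2 CPM in contralateral 1 to 3 and at 15.03, 17.0 and 15.9 CPM in ipsilateral 1 to 3. The contralateral library was higher in each mouse, but contralateral 1 lay below ipsilateral 2, so the groups overlapped. Its log2 fold change was 0.30 (SE 0.17, adjusted p = 0.826), and with mouse as a block the adjusted p was 0.332.

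Cx3cr1, the fractalkine receptor, stood at 67.1, 79.1 and 62.2 CPM contralaterally and at 69.9, 59.2 and 51.7 CPM ipsilaterally. Ipsilateral 1 lay above 2 of the 3 contralateral libraries. The log2 fold change was 0.21 (SE 0.14, adjusted p = 0.846). Selplg, the ligand of P-selectin, gave 15.7, 15.8 and 12.3 CPM against 14.6, 12.5 and 9.23 CPM. It was higher contralaterally in each mouse, with overlapping groups and a log2 fold change of 0.27 (SE 0.19, adjusted p = 0.855). P2ry12, which guides microglial processes toward released nucleotides, had a log2 fold change of 0.11, and its neighbour P2ry13 one of 0.21. Csf1r, on which microglial survival depends, had one of 0.14. P2ry12 and P2ry13 lie inside Med12l, and Gpr34 lies inside Cask, each on the opposite strand to its host gene. The exons of Csf1r overlap in part with those of Hmgxb3 on the opposite strand. Whether reads were counted by strand is not given in the sources used here, so reads of these other genes may be included in the 4 members.

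The 6 homeostatic identity genes, most of which mark microglia at rest, likewise all had log2 fold changes above 0, with a median of 0.15. By mouse, 2 of the 6 were higher contralaterally in mouse 1, and 6 of 6 in mouse 2 and in mouse 3. Siglech, a sialic acid-binding surface lectin, stood at 16.9, 21.9 and 17.9 CPM contralaterally and 17.0, 16.04 and 14.4 CPM ipsilaterally. The sides were level in mouse 1, and mice 2 and 3 were higher contralaterally, for a log2 fold change of 0.26 (SE 0.16, adjusted p = 0.830). Fcrls stood at 32.1, 32.1 and 25.6 CPM against 30.8, 28.03 and 22.7 CPM, a log2 fold change of 0.14 (adjusted p = 0.897). Aif1, which encodes the microglial stain IBA1, was far lower in reads, at 2.49, 3.11 and 2.45 CPM against 1.85, 2.82 and 2.09 CPM, a log2 fold change of 0.24 (adjusted p = 0.898). Fcrls and Aif1 were each higher contralaterally in all 3 mice, with groups that overlapped. Tmem119 had a log2 fold change of 0.15, the transcription factor Sall1 one of 0.08 and the secreted protein Olfml3 one of 0.05.

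**Figure D3:**
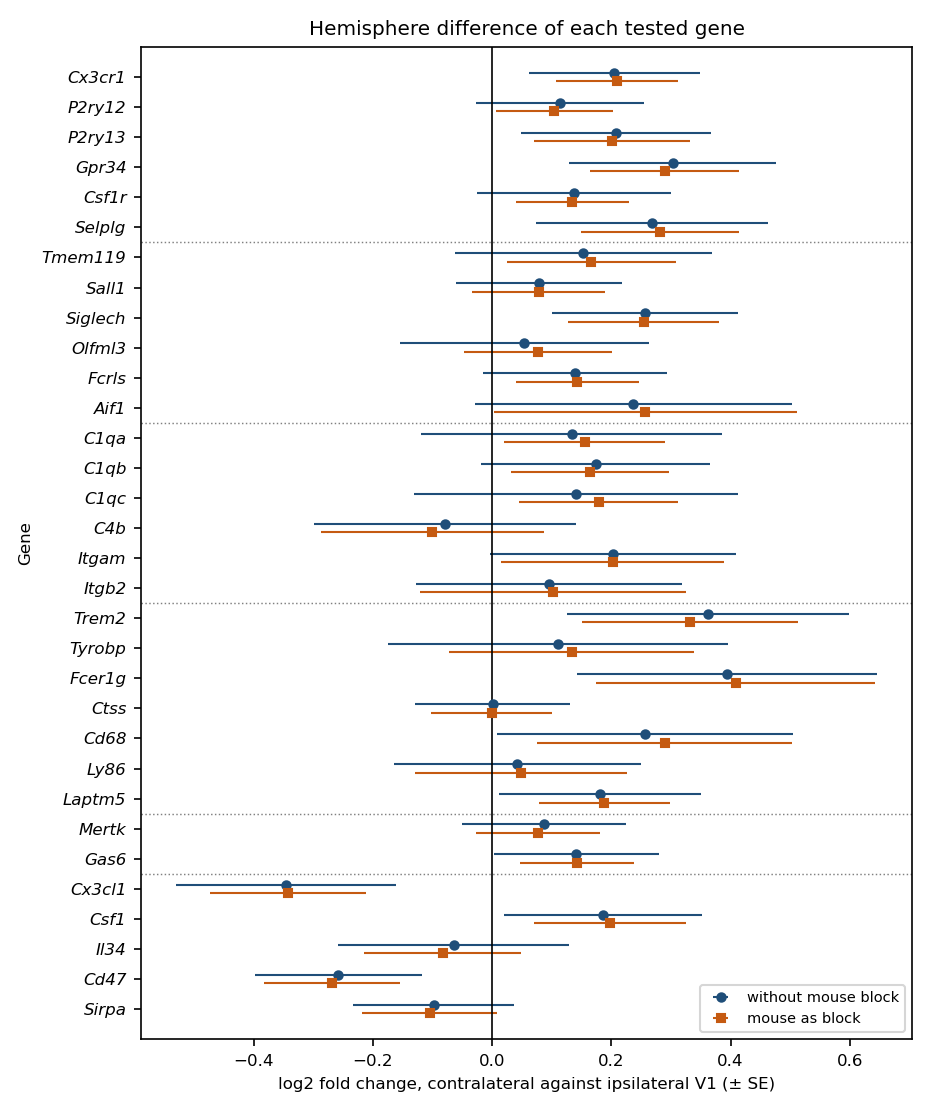
Log2 fold change (contralateral over ipsilateral) of the 32 tested members, grouped by role, without mouse as a block (circles) and with it (squares), with bars of 1 standard error. Without the block the values lie between -0.35 (Cx3cl1) and 0.39 (Fcer1g), and no member passed either test.

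Among the complement genes, 5 of the 6 tested had log2 fold changes above 0, with a median of 0.14. By mouse, 3, 6 and 3 of the 6 were higher contralaterally in mice 1, 2 and 3. C1qa, C1qb and C1qc, which encode the 3 chains of C1q, lie side by side on the minus strand of chromosome 4, within 18675 bases (GRCm38, chr4:136880129-136898803). C1qa stood at 19.4, 17.8 and 11.6 CPM in contralateral 1 to 3 and at 21.02, 12.99 and 10.6 CPM in ipsilateral 1 to 3, a log2 fold change of 0.13 (SE 0.25, adjusted p = 0.944). C1qb stood at 19.4, 21.9 and 13.8 CPM against 19.3, 15.5 and 14.1 CPM, a log2 fold change of 0.17 (SE 0.19, adjusted p = 0.897). C1qc stood at 19.8, 15.6 and 11.6 CPM against 21.2, 12.1 and 9.59 CPM, a log2 fold change of 0.14 (SE 0.27, adjusted p = 0.945). Mouse 2 was higher contralaterally for each chain, with log2 ratios of 0.46 for C1qa, 0.50 for C1qb and 0.37 for C1qc, against -0.12 to 0.28 in mice 1 and 3. The groups overlapped for all 3 chains.

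Because the C1q genes sit together, the sequences upstream of C1qb and C1qc are shown. They are 5′ to 3′ on the minus strand (RefSeq, GRCm38.p6), at chr4:136886201-136886450 for C1qb and at chr4:136893066-136893164 for C1qc, where only the 99 bases outside the annotated gene are given. Capitals mark GGAAGT or its reverse complement, the core bound by ETS factors such as PU.1, the macrophage lineage factor.
C1qb: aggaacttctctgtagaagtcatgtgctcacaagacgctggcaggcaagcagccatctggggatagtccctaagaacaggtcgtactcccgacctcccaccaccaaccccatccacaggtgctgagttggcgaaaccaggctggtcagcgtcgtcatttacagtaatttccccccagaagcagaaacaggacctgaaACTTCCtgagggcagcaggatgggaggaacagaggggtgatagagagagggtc
C1qc: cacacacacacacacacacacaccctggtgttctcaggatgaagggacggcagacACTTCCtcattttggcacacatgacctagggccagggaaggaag
Upstream windows of 250 bases were at hand for 23 of the 33 members (26 windows). GGAAGT was found on either strand in 7 of the 26, those of C1qb, C1qc, Fcrls, Laptm5, P2ry12, Sall1 and Siglech, against 19.7% of 32851 windows of all genes. The longer GAGGAAGT, which contains it, was found in 1 of the 26 (C1qc), against 2.44% of all windows. A match is a description of these letters and not a binding site.

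The remaining complement genes were low. C4b, which is cleaved downstream of C1q, stood at 6.62, 7.34 and 4.39 CPM contralaterally and at 6.89, 6.35 and 6.11 CPM ipsilaterally. It was the only tested complement member below 0, with a log2 fold change of -0.08 (adjusted p = 0.964) and overlapping groups. Itgam, the alpha chain of complement receptor 3, stood at 5.87, 7.02 and 5.12 CPM against 4.64, 5.73 and 5.21 CPM, a log2 fold change of 0.20 (adjusted p = 0.888). Itgb2, its beta chain, had a log2 fold change of 0.10.

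The 7 genes of Trem2 and Tyrobp signalling and of lysosomes all had log2 fold changes above 0, with a median of 0.18. By mouse, 3, 7 and 5 of the 7 were higher contralaterally in mice 1, 2 and 3. Fcer1g, a signalling adaptor of Fc receptors, had the highest of any member, at 3.53, 3.80 and 2.95 CPM contralaterally and 2.75, 3.05 and 2.01 CPM ipsilaterally. It was higher contralaterally in each mouse, yet ipsilateral 2 lay above contralateral 3, and the log2 fold change of 0.39 (SE 0.25) did not pass (adjusted p = 0.836). Trem2, a lipid-sensing receptor, stood at 8.86, 8.997 and 5.03 CPM against 6.54, 5.99 and 5.25 CPM. Contralateral 1 and 2 were above every ipsilateral library and contralateral 3 was below them all, for a log2 fold change of 0.36 (SE 0.24, adjusted p = 0.841). Laptm5, a lysosomal membrane protein, gave 26.5, 27.0 and 20.9 CPM against 25.4, 22.7 and 17.5 CPM, a log2 fold change of 0.18 (adjusted p = 0.877).

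Within the same group, Tyrobp, the adaptor through which Trem2 signals, had a log2 fold change of 0.11. The lysosomal glycoprotein Cd68, often used as a sign of phagocytic microglia, had one of 0.26, and it rested on ipsilateral 3, where it stood at 3.36 CPM against 5.13 to 6.69 CPM in the other 5 libraries. Ly86, a partner of a Toll-like receptor homolog, had one of 0.04, and Ctss one of 0.00, whose sign turned with the scaling. Mertk, a receptor for cells and synapses marked for engulfment, and its bridging ligand Gas6 are also expressed by astrocytes. Mertk stood at 52.6, 74.2 and 62.6 CPM contralaterally and at 58.4, 58.2 and 61.6 CPM ipsilaterally, a log2 fold change of 0.09 (adjusted p = 0.935). Gas6 stood at 71.6, 58.4 and 59.1 CPM against 63.7, 59.0 and 48.9 CPM, one of 0.14 (adjusted p = 0.882).

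The 5 partner signals leaned the other way, with 4 of 5 log2 fold changes below 0 and a median of -0.10. Over all tested genes, 55.4% were above 0. The contralateral library was higher for 2 of the 5 in mouse 1, 0 in mouse 2 and 4 in mouse 3. Their median log2 ratios were -0.03, -0.52 and 0.04 in mice 1, 2 and 3. Cx3cl1 stood at 569.9, 382 and 494 CPM in contralateral 1 to 3 and at 754, 594 and 489.7 CPM in ipsilateral 1 to 3. Mice 1 and 2 were lower contralaterally and mouse 3 was level, and the groups overlapped through ipsilateral 3. The log2 fold change was -0.35 (SE 0.19, adjusted p = 0.824), and with mouse as a block the adjusted p was 0.256. It passed only in an analysis added after seeing the data, with mt-Rnr1 level and mouse both as terms, at -0.48 and an adjusted p of 0.0418 (range over all alternatives 0.0418 to 1.00).

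Cd47 stood at 334, 269 and 369.5 CPM contralaterally and at 365, 388 and 409 CPM ipsilaterally. It was the only member lower contralaterally in every mouse, although contralateral 3 lay above ipsilateral 1. Its log2 fold change was -0.26 (SE 0.14, adjusted p = 0.824), and the adjusted p was 0.320 with mouse as a block. Sirpa had a log2 fold change of -0.10, Il34 one of -0.06 and Csf1 one of 0.19. Contralateral 2, where neuron markers were lowest, was also the lowest library for Cx3cl1, Cd47, Il34 and Sirpa, and the part of the neuron content in these values was not tested.

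A second comparison asked whether the members differed among the 3 mice, taking both libraries of each mouse and allowing for hemisphere. The p of this comparison is for any difference among the 3 mice, and the log2 differences given for mouse 3 against mouse 1 describe it without a test of their own. The labels give the mice no attribute that sets them apart. Dissection and library making may have followed the mouse number, so animal and handling cannot be told apart here. Of the 32 members, 4 passed (6.41% of all tested genes), namely C1qa, C1qc, Csf1r and Olfml3, and all 4 were highest in mouse 1 and lowest in mouse 3. C1qc averaged 20.5, 13.9 and 10.6 CPM in mice 1, 2 and 3 (adjusted p among mice = 0.00442), and the log2 difference of mouse 3 against mouse 1 was -0.96. C1qa averaged 20.2, 15.4 and 11.1 CPM (adjusted p among mice = 0.0109). Mouse 1 was thus 1.94-fold above mouse 3 in C1qc and 1.82-fold in C1qa, with both libraries of mouse 1 above both of mouse 3.

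C1qb, the third chain, averaged 19.3, 18.7 and 13.9 CPM and did not pass (adjusted p among mice = 0.156), with a log2 difference of -0.47. Whether C1qb differed from C1qa and C1qc in this respect was not tested. Csf1r averaged 106, 103 and 76.4 CPM (adjusted p among mice = 0.0301), with a log2 difference of -0.47. Olfml3 averaged 20.3, 18.1 and 13.02 CPM (adjusted p among mice = 0.0346), with a log2 difference of -0.65. Tmem119 and Tyrobp did not pass (adjusted p among mice = 0.0904 and 0.112), with log2 differences of -0.62 and -0.82.

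**Figure D4:**
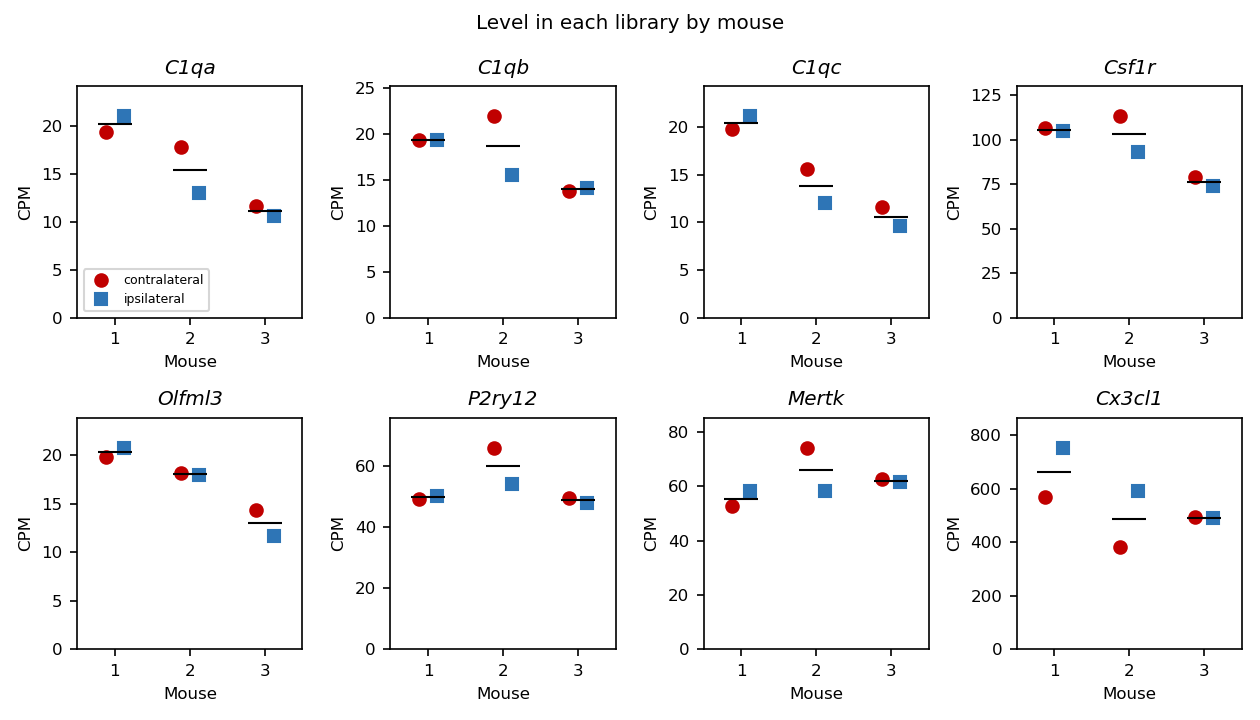
CPM (y axis, from 0) of C1qa, C1qb, C1qc, Csf1r, Olfml3, P2ry12, Mertk and Cx3cl1 by mouse (x axis), with contralateral libraries as circles, ipsilateral libraries as squares and the mean of both as a bar. For C1qa and C1qc mouse 1 is highest on both sides of the brain, with means of 20.2 and 20.5 CPM, against 11.1 and 10.6 CPM in mouse 3, the lowest.

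Across the list, mouse 3 lay below mouse 1 in 27 of 32 members (48.8% of all genes), with a median log2 difference of -0.31 against 0.01 over all genes. Both libraries of mouse 1 were above both of mouse 3 for 19 of 32 members (27.8% of all genes). The same 8 microglia markers from outside the list had a median log2 difference of -0.41 and none passed. For a wider list of 30 other microglial genes, which includes those 8, the median was -0.17 and 1 passed. Markers of several other cell types had medians in the same direction. The median was -0.44 for 6 markers of oligodendrocyte precursors, of which 5 passed among mice, -0.33 for 8 meningeal and fibroblast markers (2 passed) and -0.28 for 10 oligodendrocyte markers (3 passed). It was -0.17 for 10 astrocyte markers (3 passed) and -0.08 for 10 endothelial and mural markers (3 passed). Neuron markers had a median of 0.09 (2 of 10 passed), and mitochondrial transcripts had a median of 0.67 (8 of 11 passed). Border macrophage markers also went the other way, with a median of 0.53 over the 4 tested (0 passed). Red blood cell markers had a median of 0.20 over the 5 tested (2 passed). Both libraries of mouse 1 were low in mt-Rnr1, whereas mouse 3 had a low and a high library, and the part of this and of tissue composition in the difference was not tested. With mt-Rnr1 level as a term, 5 members and 1011 of 20473 genes passed. The adjusted p moved with single libraries, as did the number of calls over all genes. Without ipsilateral 1, which left mouse 1 with 1 library, fewer members and fewer of all genes passed. Without ipsilateral 2, which left mouse 2 with 1 library, more of both passed. C1qa and C1qc were lost without ipsilateral 1 (adjusted p = 0.252 and 0.211), with log2 differences of -0.62 and -0.71. Csf1r was lost without contralateral 1, contralateral 3, ipsilateral 1 or ipsilateral 3 (adjusted p = 0.188 to 0.286), with log2 differences of -0.55, -0.44, -0.35 and -0.47. Olfml3 was lost without contralateral 1, ipsilateral 1 or ipsilateral 3 (adjusted p = 0.150 to 0.510), with log2 differences of -0.76, -0.51 and -0.46, and under DESeq2 (adjusted p = 0.0825), with -0.63.

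Other genes of the same pathways were read from wider lists. Of 42 further complement genes and pentraxins, 29 were tested, 21 had log2 fold changes above 0 (median 0.10), and 1 passed. It was Nptx2, a neuronal pentraxin that clusters glutamate receptors and shares a domain with the pentraxins of innate immunity. It stood at 17.1 ± 1.37 CPM contralaterally and 54.7 ± 24.0 CPM ipsilaterally (SD, n = 3), a log2 fold change of -1.67 (SE 0.24, edgeR adjusted p = 0.0180). The call held with mouse as a block (edgeR adjusted p = 5.13e-06), with DESeq2 (1.18e-09) and without mouse 1 (edgeR, 1.68e-05). It was lost without contralateral 2 (adjusted p = 0.365), contralateral 3 (0.0980) or mouse 2 (0.9999), where the log2 fold change was -1.62, -1.67 and -1.77. Without contralateral 2 or mouse 2, 0 of all tested genes passed. Nptx2 is a gene that neuronal activity induces, and it is not a microglial product.

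Of 30 other microglial genes, all tested and including those 8 markers, 21 had log2 fold changes above 0 (median 0.08) and 0 passed. They included the membrane-shaping gene Bin2 at 0.61 (adjusted p = 0.770) and the hexokinase gene Hk2 at 0.24 (0.864). Of 28 genes of microglial activation, 21 were tested, 12 were above 0 (median 0.10) and 0 passed. Among them were the costimulatory gene Cd86 at 0.54 (adjusted p = 0.804), Gpnmb at -0.57 (0.832) and the cytokine receptor gene Csf2ra at 0.31 (0.841). Of 22 further genes of phagocytosis and engulfment, 21 were tested, 12 were above 0 (median 0.04) and 0 passed, with Elmo1 at -0.32 (adjusted p = 0.734), Itgav at -0.27 (0.784) and the lipid transporter gene Abca1 at 0.29 (0.796).

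Macrophages and blood cells could share these genes with microglia. Of 10 markers of border macrophages, 4 were tested and 0 passed, and their summed level was 8.7 to 15.1 CPM per library. Of 14 markers of monocytes, neutrophils and lymphocytes, 0 had enough reads to be tested, their summed level was 1.0 to 1.5 CPM, and Ltf was at 0 in every library. The second deposited table, of back-splice reads that mark circular RNAs, listed 1488 circular RNAs, and 0 had a member as host gene.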

How the data were processed

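Reads were aligned and counted per gene by the authors with HISAT2 and featureCounts, per the submitters' processing notes, which name GRCm38. The deposited values used are raw read counts per gene and, for circular RNAs, counts of back-splice reads. The deposited gene length, in bases, was used for RPKM. The kit named in the labels' protocols is stranded. The counting's strand setting is not given in the sources used here. Gene symbols came from GENCODE M21, which matched 52489 of 52636 identifiers, and unmatched rows held 0.0473 to 0.0551% of reads per library.

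Counts were filtered (edgeR filterByExpr, minimum count 10, minimum total 15), scaled by TMM and tested with edgeR 4.0.16 (quasi-likelihood F-test, R 4.3.3), with 3 libraries per side. The hemisphere test was fitted without mouse, and with mouse as a block as an alternative. Unless another fit or a comparison among mice is named, standard errors and adjusted p of single genes are from the fit without mouse. The block is backed by the labels, which give both sides of each mouse. Deviations of the 2 sides correlated at r = 0.431, 0.0775 and 0.172 in mice 1, 2 and 3, and at most at -0.188, 0.177 and 0.177 with a library of another mouse on the other side. Differences among mice were tested as an F-test of mouse, with hemisphere as a term. DESeq2 1.42.0, limma-voom (limma 3.58.1), other scaling, no filter, leaving out libraries or mice, and mt-Rnr1 level were alternatives. Libraries correlated at 0.976 to 0.988 in log2 CPM and none was a duplicate.

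Deviations used log2 of CPM plus 0.5. The members and lists were chosen with earlier results of these data known. Values in every library are given for the 3 members with the smallest p per role group of 6 or more (2 in smaller groups). They are also given for the C1q genes, C3, C4b and any member that passed between the hemispheres with or without the block. Other lists are given by passing genes, or up to 3 with the smallest p and a mean of at least 1 CPM. A gene that this rule names is not reported here. Depositors' normalized circular RNA values were not used.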

Additional observations from a re-analysis of the deposited data

How the results depend on the processing

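No member passed between the hemispheres under 18 of 19 alternatives, and 1 (Cx3cl1) passed with mt-Rnr1 level as a term plus the replicate block. Over all genes 26 passed, against 109 without the filter, 89 with DESeq2, 183 with the replicate block, 215 with DESeq2 and the replicate block, and 363 with mt-Rnr1 level plus the replicate block. Leaving out libraries or mice gave 0 to 39, with 0 without contralateral 2 or mouse 2 (edgeR, 833 and 521 genes at an unadjusted p under 0.05). The replicate block changed no member's call. Among mice, 4 members passed (0 to 18 with a library left out), and over all genes 1313 (220 to 4425).

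Of 32 tested members, 13 kept their sign under all 19 alternatives. Within the low mt-Rnr1 libraries the log2 fold change turned to -0.0053 for P2ry12, -0.059 for Sall1, -0.046 for Ctss, -0.20 for Mertk, 0.017 for C4b, 0.34 for Il34 and 0.040 for Sirpa. Within the high ones it turned to -0.15 for Olfml3, -0.031 for Aif1, -0.022 for Itgb2, -0.095 for Ly86, -0.0082 for Gas6 and -0.16 for Csf1. C4b turned to 0.037 with mt-Rnr1 level plus the replicate block. Ctss, at 0.00 in the main test, gave -0.0197 with DESeq2 size factors, -0.012 without the filter, -0.0197 with DESeq2, -0.00199 with limma-voom, -0.00092 with the replicate block and -0.022 with DESeq2 and the replicate block. The cause was not tested.

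With a library or mouse left out, log2 fold changes crossed 0 for 14 members. They ran from -0.039 to 0.18 for P2ry12, -0.012 to 0.35 for Tmem119, -0.16 to 0.19 for Olfml3, -0.067 to 0.42 for C1qa, -0.0067 to 0.34 for C1qb, -0.086 to 0.49 for C1qc, -0.24 to 0.11 for C4b, -0.084 to 0.40 for Tyrobp, -0.10 to 0.070 for Ctss, -0.011 to 0.43 for Cd68, -0.089 to 0.13 for Ly86, -0.059 to 0.20 for Mertk, -0.30 to 0.13 for Il34 and -0.18 to 0.0014 for Sirpa. Where a fit left 1 library on a side, that library was assumed to vary like the others.

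Depth limits Aif1, C4b, Itgam, Itgb2, Tyrobp, Fcer1g and Cd68, whose lowest library held 37 to 95 reads.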
